A study of Mus musculus with 6 samples.

Results

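The 10 genes described here encode signalling proteins of the TGF-beta superfamily. They are the TGF-beta ligand genes *Tgfb1*, *Tgfb2* and *Tgfb3*, the BMP ligand genes *Bmp2*, *Bmp4* and *Bmp10*, the activin subunit gene *Inhba*, and the receptor genes *Tgfbr1*, *Tgfbr2* and *Bmpr2*. They were picked by symbol, as the entries of the gene count table whose Ensembl identifiers carry these names in the GENCODE annotation of GRCm38, and make up 10 of its 54532 genes. All 10 were among the 13323 genes with enough reads to be tested, and *Inhba* passed that filter through the YAP5SA libraries alone.

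The study asked what active YAP does in cardiomyocytes (CMs) when it cannot bind TEAD, its usual DNA-binding partner. Wildtype ICR mice received 1e+11 viral genomes of AAV9 under the skin at P6, and the virus carried GFP, YAP5SA (YAP without its LATS1/2 phosphorylation sites) or YAP6SA (the same protein with a further substitution that blocks TEAD binding), each driven by the cTnT promoter, which directs expression to CMs. Hearts were taken at P9, 3 d later, and poly-A RNA of nuclei pulled down with an antibody against PCM1, a protein of the CM nuclear surface, was sequenced without strand information in 2 libraries per group. Replicate 1 and replicate 2 of each group belonged to batch 1 and batch 2, and the labels give 2 hearts per virus without tying each heart to a library, so the tests measure the spread between libraries.

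TGF-beta ligands are secreted in a latent form, are released by proteases, integrins and thrombospondins, and bind a complex of the type I receptor TGFBR1 and the type II receptor TGFBR2, which phosphorylates SMAD2 and SMAD3. BMP ligands act through type II receptors such as BMPR2 and type I receptors of the ALK family to phosphorylate SMAD1, SMAD5 and SMAD9, and activins, which are dimers of inhibin beta subunits, signal to SMAD2 and SMAD3 through activin receptors. In the heart these ligands are known for roles in valve and septum formation, epicardial cell behaviour, trabeculation and scar formation.

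*Yap1*, the gene that was overexpressed, was examined first. It had 139 and 130 CPM (gene counts scaled to the library size after TMM adjustment) in GFP replicates 1 and 2, 122 and 130 in YAP6SA, and 138 and 102 in YAP5SA. The mouse *Yap1* counts therefore did not mark the virus given, and whether reads of the viral cassette were counted on this gene was not tested. The libraries held 14552847 to 19615627 counts on genes, at which a gene with 0 counts could lie at up to 0.153 to 0.199 CPM (3 counts, counting error alone). The CM markers *Tnnt2*, *Actn2*, *Myh6*, *Ryr2*, *Ttn*, *Myl2* and *Pln* summed to 28455 to 62097 CPM per library. Markers of other heart cells were present at far lower levels. They summed to 476 to 707 CPM over 8 endothelial and endocardial genes and 734 to 1542 CPM over 7 fibroblast genes. Taken singly, the 10 genes described here had GFP means from 1.84 CPM (*Bmp2*) to 64.5 CPM (*Tgfbr1*). These are values of single genes and are not on the scale of the marker sums. Which cells their transcripts came from was not tested.

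The promoter sequences of 3 ligand genes that were higher in YAP5SA OE CMs are shown because they hold short motifs known from other genes. They are the 250 bases before the RefSeq start site, from GRCm38.p6, written 5′ to 3′ on the strand of the gene. Capitals mark the TATA box letters TATAAA and the E-box letters CACGTG, both searched on either strand.
*Tgfb2*, chr1:186705990-186706239, minus strand: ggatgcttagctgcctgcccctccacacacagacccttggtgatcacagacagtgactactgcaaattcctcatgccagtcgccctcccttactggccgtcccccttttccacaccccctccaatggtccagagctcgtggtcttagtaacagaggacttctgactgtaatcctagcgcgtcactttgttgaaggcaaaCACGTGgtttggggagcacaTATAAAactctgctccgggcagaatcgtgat
*Inhba*, chr13:16011601-16011850, plus strand: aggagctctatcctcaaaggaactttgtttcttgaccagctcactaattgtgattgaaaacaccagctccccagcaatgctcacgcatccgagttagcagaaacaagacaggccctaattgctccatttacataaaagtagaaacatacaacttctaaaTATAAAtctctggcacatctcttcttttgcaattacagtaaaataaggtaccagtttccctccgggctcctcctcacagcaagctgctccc
*Bmp4*, chr14:46390670-46390919, minus strand: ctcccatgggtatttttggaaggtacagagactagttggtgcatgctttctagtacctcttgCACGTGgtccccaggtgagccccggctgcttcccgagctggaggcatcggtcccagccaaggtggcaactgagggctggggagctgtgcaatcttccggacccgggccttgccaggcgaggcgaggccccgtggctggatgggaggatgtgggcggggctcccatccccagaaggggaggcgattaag
In *Tgfb2*, TATAAA lay 31 to 26 bases and CACGTG 51 to 46 bases before the start. In *Inhba*, TATAAA lay 91 to 86 bases before it, and in *Bmp4*, CACGTG lay 188 to 183 bases before it. Of 32851 mouse promoter windows of the same length, 12.4% held TATAAA and 6.02% held CACGTG. The core of the TEAD motif, GGAATG, was found in 12.6% of all windows and in 0 of the 9 windows of the 8 genes with a RefSeq entry, and the AP-1 motif TGANTCA in 6.75% and 0 of 9. These counts describe the letters in a short window and do not cover enhancers. *Tgfb3* and *Bmp2* had no entry.

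In GFP CMs, the type I receptor was the most abundant of the 10 transcripts and *Inhba* the least. Levels of different genes were compared as RPKM, the CPM per kilobase of exon sequence. *Tgfbr1* stood at 9.86 ± 0.35 RPKM (mean ± SD, n = 2 libraries), above *Bmp4* at 4.03 ± 1.35 and *Tgfb2* at 3.81 ± 0.0836. These were followed by *Tgfb3* at 2.80, *Tgfb1* at 2.52 and *Bmp10* at 2.29 RPKM, and then by *Bmpr2* at 0.999, *Tgfbr2* at 0.881, *Bmp2* at 0.517 and *Inhba* at 0.382 RPKM. The libraries of neighbours in this order were separate only between *Tgfbr1* and *Bmp4*, between *Tgfb2* and *Tgfb3*, and between *Bmp10* and *Bmpr2*. With the longest transcript in place of all exon bases as the length, *Tgfb1* moved from place 5 to place 2.

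In YAP5SA OE CMs the order of the means was different, and ligand transcripts rather than the receptor had the highest means. *Tgfb3* led with 31.1 ± 10.6 RPKM, followed by *Bmp4* at 23.0 ± 16.5, *Tgfb2* at 16.6 ± 6.17, *Tgfbr1* at 11.4 ± 0.168 and *Inhba* at 9.38 ± 6.98. The libraries of *Bmp4* overlapped those of *Tgfb3* and of *Tgfb2*. They also overlapped those of *Tgfbr1*, with *Bmp4* at 11.29 RPKM in replicate 1 and *Tgfbr1* at 11.52 and 11.28. Both *Tgfb3* libraries lay above both *Tgfb2* libraries, and those of *Tgfb2* lay above those of *Tgfbr1*. In YAP6SA OE CMs *Tgfbr1* was still first, at 8.91 ± 0.604 RPKM, and *Inhba* last, at 0.30 ± 0.116.

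**Figure D1:**
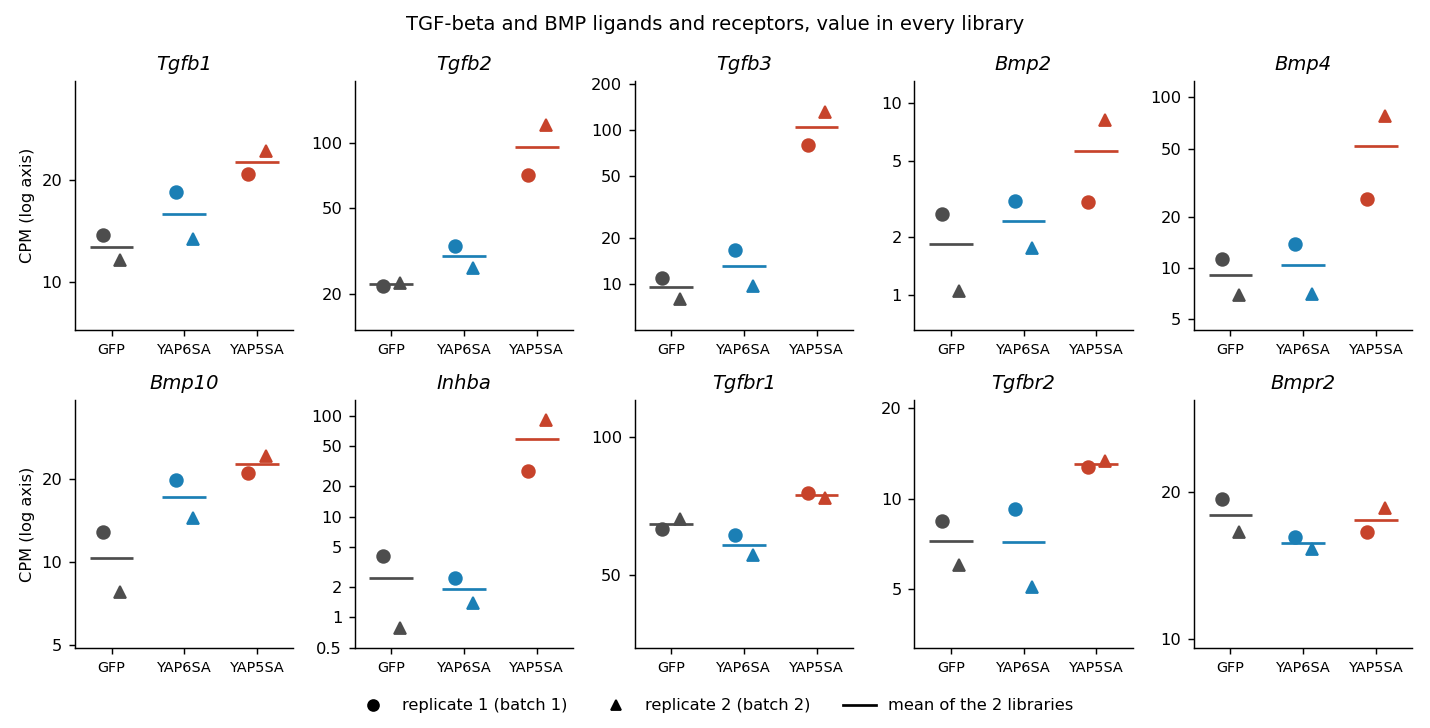
CPM of each gene (log axis) in GFP, YAP6SA and YAP5SA libraries, with circles for replicate 1, triangles for replicate 2 and a line at the mean of the 2 libraries. *Tgfb2*, *Tgfb3*, *Bmp4* and *Inhba* sit above the other groups in both YAP5SA libraries, while *Bmpr2* stays between 15.3 and 19.3 CPM in all 6.

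Against GFP, 6 of the 10 genes were higher in YAP5SA OE CMs at an FDR under 0.05 and 0 were lower (edgeR quasi-likelihood test with Benjamini-Hochberg adjustment over all 13323 genes). All 6 encode ligands, and neither the ligand gene *Bmp2* nor any of the 3 receptor genes passed. The log2 fold change of the receptor gene *Tgfbr2* (0.89, FDR 0.0649) was as large as that of *Tgfb1* (0.84, FDR 0.0332), which was called. *Inhba* is among the 6 and in the counts and median that follow, and it passed the filter on low counts through YAP5SA alone. The 10 genes were chosen with earlier results of these data known. The shares over all genes are given beside them and do not test them as a set. Over all genes tested, 12.8% were higher, 9.18% were lower and 22% were called in either direction. Both YAP5SA libraries lay above both GFP libraries for 9 of the 10 genes, which was the case for 31.2% of all genes, and both lay below for 0 of the 10, against 29.7%. At an unadjusted p under 0.05 there were 8 of the 10, against 36.4%. The median log2 fold change was 1.42 over the 10 genes and -0.00314 over all genes tested.

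*Tgfb3* (ENSMUSG00000021253, chromosome 12, 86056745 to 86079041, minus strand) had the lowest p-value of the 10 genes. This TGF-beta isoform is known for its part in palate fusion and in the transition of epithelial and endocardial cells to mesenchyme. It had 208 and 123 counts in GFP replicates 1 and 2, 325 and 160 in YAP6SA, and 1202 and 2329 in YAP5SA, which is 9.48 ± 2.05, 13.1 ± 4.83 and 105 ± 36.0 CPM. Each YAP5SA library was well above each of the other 4, while the GFP and YAP6SA libraries overlapped. The log2 fold change of YAP5SA against GFP was 3.49 (SE 0.32), an 11.2-fold difference, with an FDR of 0.000232. Within batch 1 the difference was 2.85, and within batch 2 it was 4.0. A pair of genes on the opposite strand share 163 and 257 exon bases with it and had 4 and 5 counts in all 6 libraries together, and *Ttll5*, which overlaps it on that strand with no shared exon base, had 1546 against 4347 for *Tgfb3*.

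*Tgfb2* (ENSMUSG00000039239, chromosome 1, 186622792 to 186705989, minus strand) encodes the isoform best known for cardiac cushion and outflow tract development. It stood at 21.7 and 22.4 CPM in GFP, 33.3 and 26.4 in YAP6SA, and 70.8 and 121 in YAP5SA. The 3 groups did not overlap, with GFP lowest and YAP5SA highest. YAP5SA exceeded GFP by 2.10 on the log2 scale (SE 0.25, FDR 0.000703), with 1.70 in batch 1 and 2.43 in batch 2. An antisense transcript that shares 124 exon bases had 24 counts in all.

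*Tgfb1* (ENSMUSG00000002603, chromosome 7, 25687002 to 25705077, plus strand), the isoform that is most widely studied in fibrosis and immune regulation, changed least of the 3. It had 13.8 and 11.6 CPM in GFP, 18.4 and 13.4 in YAP6SA, and 20.8 and 24.3 in YAP5SA. Both YAP5SA libraries were the highest, but the nearest YAP6SA library was close. The log2 fold change against GFP was 0.84 (SE 0.24, FDR 0.0332), and this call did not hold without the batch term (FDR 0.0518) or without GFP replicate 1 (0.105), GFP replicate 2 (0.245) or YAP5SA replicate 2 (0.184).

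The mix of the TGF-beta isoform transcripts differed between the groups. In GFP, *Tgfb2* made up 38.6% and 45.3% of the summed RPKM of the 3 genes, *Tgfb3* 33.3% and 27.8%, and *Tgfb1* 28.1% and 27.0%. The YAP6SA libraries were close to these, with 40.2% and 45.2% for *Tgfb2* and 34.2% and 28.4% for *Tgfb3*. In YAP5SA, *Tgfb3* made up 59.0% and 60.0%, *Tgfb2* 30.7% and 32.6%, and *Tgfb1* 10.3% and 7.48%. The sum itself was 9.71 and 8.55 RPKM in GFP, 14.3 and 10.1 in YAP6SA, and 39.9 and 64.4 in YAP5SA. The share of *Tgfb3* in YAP5SA thus lay above, and those of *Tgfb2* and *Tgfb1* below, the range of the other 4 libraries, and no test was made on the shares. The shares depend on the length used. Per longest transcript, *Tgfb1* was the largest in GFP, with 41.7% and 40.1%, and *Tgfb3* in YAP5SA, with 51.8% and 53.8%. With that length *Tgfb2* had 33.08% and 38.8% in GFP and 30.4% and 33.06% in YAP5SA, so that its groups nearly met.

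**Figure D2:**
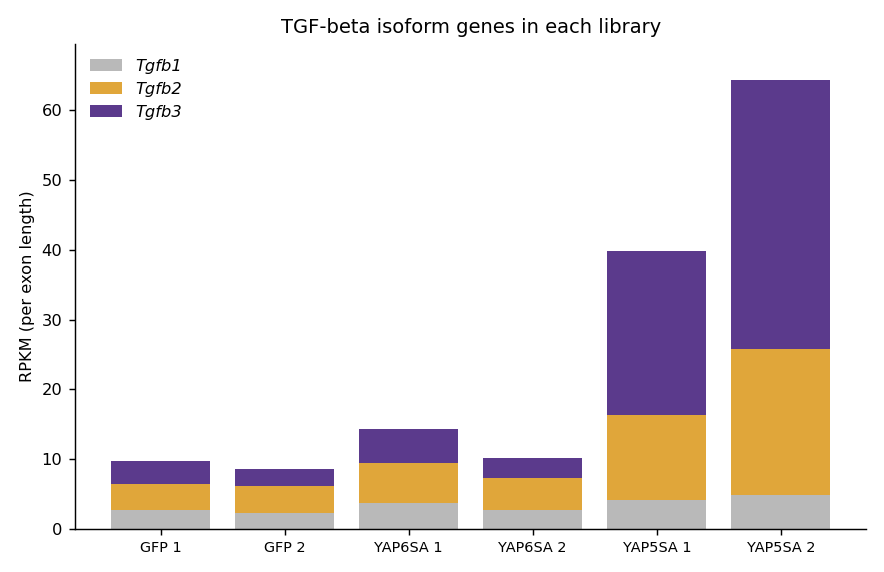
Summed RPKM of *Tgfb1*, *Tgfb2* and *Tgfb3* in each of the 6 libraries, stacked by gene. The YAP5SA bars reach 39.9 and 64.4 RPKM against 8.55 to 14.3 in the other libraries, and their largest segment is *Tgfb3*.

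*Inhba* (ENSMUSG00000041324, chromosome 13, 16011851 to 16031621, plus strand) encodes the beta A subunit shared by activin A and inhibin A. It had 78 and 12 counts in GFP, 48 and 23 in YAP6SA, and 429 and 1632 in YAP5SA. In CPM these are 4.10 and 0.784, 2.44 and 1.39, and 28.4 and 91.5. All 4 GFP and YAP6SA libraries were low, and the YAP5SA libraries were both far above them but differed from each other by 3.22-fold. The log2 fold change of YAP5SA against GFP was 4.56 (SE 0.72, 95% interval 2.95 to 6.17), a 23.6-fold difference, with an FDR of 0.00267. The difference within batch 1 was 2.76 and that within batch 2 was 6.66, so that its size was poorly fixed by 2 libraries a group.

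The BMP ligand genes moved by differing amounts. *Bmp4* (ENSMUSG00000021835, chromosome 14, 46383520 to 46390669, minus strand), which encodes a ligand used from mesoderm induction to outflow tract septation, had 11.2 and 6.92 CPM in GFP, 13.8 and 7.03 in YAP6SA, and 25.4 and 78.0 in YAP5SA. The YAP5SA libraries were the 2 highest, and the GFP and YAP6SA libraries overlapped. Its log2 fold change against GFP was 2.49 (SE 0.53, FDR 0.00988), with 1.17 in batch 1 and 3.47 in batch 2, and without GFP replicate 2 it was 1.92 with an FDR of 0.0639. *Gm15222*, an antisense gene that shares no exon base with *Bmp4* but lies within its span, had 812 counts in all against 2480 for *Bmp4*, and the libraries do not tell strands apart.

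*Bmp10* (ENSMUSG00000030046, chromosome 6, 87428994 to 87437677, plus strand) encodes a ligand made by CMs, in the trabeculae of the embryonic heart and later mainly in the atria. It had 12.8 and 7.77 CPM in GFP, 19.8 and 14.5 in YAP6SA, and 21.0 and 24.3 in YAP5SA. The 3 groups did not overlap. YAP5SA exceeded GFP by 1.18 on the log2 scale (SE 0.27, FDR 0.0132), a call that did not hold without GFP replicate 2 (0.89, FDR 0.177) or without YAP5SA replicate 2 (0.79, FDR 0.0549). The summed atrial markers were also higher. *Sln*, *Myl7*, *Myl4*, *Nppa*, *Dkk3* and *Nr2f1* summed to 465 and 378 CPM in GFP, 521 and 461 in YAP6SA, and 671 and 683 in YAP5SA, and 3 of the 6 (*Myl7* by 0.72, *Myl4* by 0.74 and *Nppa* by 1.18 on the log2 scale) were higher in YAP5SA OE CMs. *Sln* (0.29, FDR 0.425) and *Dkk3* (0.19, FDR 0.583) were not called, and *Nr2f1* was lower in both YAP5SA libraries but missed the threshold (-1.09, FDR 0.0579). Whether the share of atrial nuclei played a part in the *Bmp10* values was not tested.

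*Bmp2* (ENSMUSG00000027358, chromosome 2, 133552159 to 133562885, plus strand), a ligand of the atrioventricular canal, was the scarcest of the 3 BMP transcripts described here. It had 50 and 16 counts in GFP, 61 and 29 in YAP6SA, and 46 and 146 in YAP5SA. Only YAP5SA replicate 2 stood apart, at 8.18 CPM against 1.04 to 3.10 in the other 5 libraries. The log2 fold change against GFP was 1.65 (SE 0.65, FDR 0.0941). Within the batches the difference was 0.20 and 2.83. The gene passed the threshold with no filter on low counts (FDR 0.00406) and in the likelihood ratio test (0.0358).

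None of the receptor genes passed the threshold against GFP. *Tgfbr1* (ENSMUSG00000007613, chromosome 4, 47353222 to 47414931, plus strand), the TGF-beta type I receptor, had 62.8 and 66.1 CPM in GFP, 61.0 and 55.4 in YAP6SA, and 75.3 and 73.7 in YAP5SA. The 3 groups did not overlap, with YAP6SA lowest, but the log2 fold change of YAP5SA against GFP was 0.21 (SE 0.15, 95% interval -0.12 to 0.54, FDR 0.344). *Tgfbr2* (ENSMUSG00000032440, chromosome 9, 116084293 to 116175360, minus strand), the type II receptor that binds the ligand, had 8.41 and 6.01 CPM in GFP, 9.26 and 5.09 in YAP6SA, and 12.7 and 13.3 in YAP5SA. Both YAP5SA libraries were the highest. Its log2 fold change against GFP of 0.89 (SE 0.31, FDR 0.0649) missed the threshold, and it passed with no filter on low counts (FDR 0.0258) and in the likelihood ratio test (0.0278). *Bmpr2* (ENSMUSG00000067336, chromosome 1, 59763400 to 59879014, plus strand), the BMP type II receptor, had 19.3 and 16.6 CPM in GFP, 16.2 and 15.3 in YAP6SA, and 16.6 and 18.6 in YAP5SA. GFP and YAP5SA overlapped, with a log2 fold change of -0.03 (95% interval -0.52 to 0.46, FDR 0.938).

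In YAP6SA OE CMs, 0 of the 10 genes were called against GFP by edgeR, DESeq2 or limma-voom. Of all genes, 0.045% were called (6 of 13323, edgeR quasi-likelihood test). At an unadjusted p under 0.05 there was 1 of the 10, against 5.93% of all genes. This was *Bmp10*, 0.75 higher on the log2 scale (SE 0.27, 95% interval 0.15 to 1.34, FDR 0.707). The share of all genes called depended on the setting. It was 0.413% in DESeq2, 0.615% in the likelihood ratio test and 0.529% with no filter on low counts. With only the 4 libraries compared it was 1.84%, and without the batch term it was 0. The study reports many more changed genes in YAP6SA OE CMs, in both directions, than were called here. The cause of that gap was not tested. The median log2 fold change of the 10 genes was 0.26, against 0.00179 over all genes tested. Both YAP6SA libraries lay above both GFP libraries for *Tgfb2* and *Bmp10* and below them for *Tgfbr1* and *Bmpr2*, where 17.3% of all genes lay above and 17% below. The intervals for *Tgfb2* (-0.09 to 0.98), *Tgfb3* (-0.23 to 1.16) and *Tgfb1* (-0.22 to 0.86) allow a rise of up to about these upper bounds, and the interval for *Inhba* (-2.06 to 1.30) allows a large difference either way. The intervals of *Tgfbr1* (-0.48 to 0.18) and *Bmpr2* (-0.68 to 0.30) were narrower.

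The variants were also compared directly. They differ by the substitution that blocks TEAD binding, and the study also reports that less of YAP6SA was nuclear and more was cytoplasmic. Which of these played a part in the differences was not tested. Of the 10 genes, 4 were higher in YAP5SA than in YAP6SA OE CMs and 0 were lower, where 9% of all genes were higher, 5.68% were lower and 14.7% were called in either direction. Both YAP5SA libraries lay above both YAP6SA libraries for 9 of the 10, against 28.6% of all genes, and below for 0, against 28.9%. The 4 were *Inhba* with a log2 fold change of 4.94 (SE 0.73, FDR 0.00253), *Tgfb3* with 3.02 (SE 0.32, FDR 0.000526), *Bmp4* with 2.29 (SE 0.53, FDR 0.0184) and *Tgfb2* with 1.65 (SE 0.24, FDR 0.00248). The *Bmp4* call did not hold in DESeq2 (adjusted p 0.0599) or without YAP6SA replicate 2 (log2 fold change 1.53, FDR 0.178). *Tgfb1* (0.52, 95% interval -0.01 to 1.05, FDR 0.172) and *Bmp10* (0.43, 95% interval -0.15 to 1.01, FDR 0.292), which were called against GFP, were not shown to differ between the variants. Both contrasts of YAP5SA share its libraries, and both contrasts with GFP share the GFP libraries. *Inhba*, which is in these counts, passed the filter on low counts through YAP5SA alone. *Tgfb2*, *Tgfb3* and *Inhba* were called in both contrasts of YAP5SA under every alternative that was run.

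**Figure D3:**
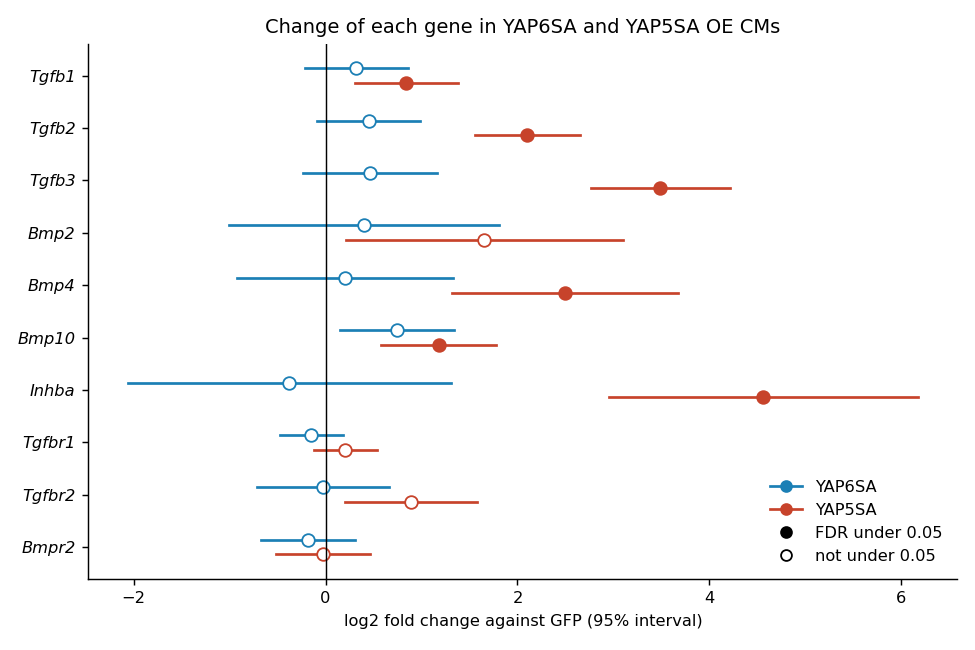
Log2 fold change against GFP with its 95% interval for each gene in YAP6SA and YAP5SA OE CMs, filled where the FDR is under 0.05. The 6 filled points, all YAP5SA and all ligand genes, run from 0.84 for *Tgfb1* to 4.56 for *Inhba*, and the YAP6SA points lie between -0.38 and 0.75. The open YAP5SA points of *Tgfbr2* and *Bmp2* lie at 0.89 and 1.65.

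Replicates of a group also differed together. In GFP, 8 of the 10 genes were higher in replicate 1, and in YAP6SA all 10 were. In YAP5SA, 9 of the 10 were higher in replicate 2, with *Tgfbr1* the exception. The differences between YAP5SA and GFP were accordingly larger in batch 2 than in batch 1 for all of the 6 genes called. The share of all genes with these directions was not counted. Summed fibroblast markers were 1165 and 734 CPM in GFP, 1542 and 857 in YAP6SA, and 1289 and 771 in YAP5SA. Summed CM markers were higher in replicate 2 of GFP and YAP6SA, and macrophage markers in replicate 2 of every group. Whether the makeup of the nuclei played a part was not tested.

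Across the 6 libraries, the 3 genes whose log2 CPM followed that of *Tgfb3* most closely, among 9902 genes whose log2 CPM averaged 3 or more, were *Pkmyt1*, *Ankrd44* and *Wsb1*, each with a Pearson correlation of 0.998. *Pkmyt1*, which encodes a kinase that holds CDK1 inactive, had 12.9 and 9.47 CPM in GFP, 18.3 and 12.6 in YAP6SA, and 56.0 and 91.0 in YAP5SA. These 6 points share the libraries, and in all 3 genes the 2 YAP5SA libraries are the highest.

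Another 112 genes of the pathway were listed by role, of which 79 passed the filter. The role lists overlap, so that *Smad7*, *Pmepa1* and *Bambi* are counted in several of them. In the 79 each gene is counted only once. Against GFP, 18 of the 79 were higher and 2 were lower in YAP5SA OE CMs. In either direction this was 25.3%, against 22% of all genes, of which 12.8% were higher and 9.18% lower. The median log2 fold change was 0.34, against -0.00314 over all genes tested. Of the 79, 7 passed the filter through YAP5SA alone, and 3 of these 7 and 15 of the other 72 were called higher. With a library left out the count of 20 fell or rose, and it was not set against the share of all genes in those fits.

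Among the other ligands, 8 of 26 passed the filter, with 2 higher and 1 lower in YAP5SA OE CMs (37.5%, against 22% of all genes). *Bmp8b*, a BMP family ligand, passed the filter through YAP5SA alone. It had 0 counts in all 4 GFP and YAP6SA libraries and 26 and 59 in YAP5SA. With a floor of 3 counts in each GFP library, YAP5SA was at least 14.2-fold higher than GFP. *Gdf15*, a ligand released under cell stress, had 3.47 and 1.96 CPM in GFP, 8.19 and 7.21 in YAP6SA, and 8.02 and 11.5 in YAP5SA. It was called in YAP5SA (log2 fold change 1.86, FDR 0.0098) and not in YAP6SA (1.5, FDR 0.462), although both libraries of each variant lay above GFP. *Inha*, the inhibin alpha subunit, fell by 0.62 on the log2 scale in YAP5SA (FDR 0.0278).

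Of 13 other receptors and coreceptors, 12 passed the filter, with 1 higher and 1 lower, or 16.7%, against 22% of all genes. *Amhr2*, the type II receptor for anti-Müllerian hormone, passed the filter through YAP5SA alone. It had 0.946 and 0.849 CPM in GFP, 0.763 and 1.70 in YAP6SA, and 12.8 and 28.1 in YAP5SA (log2 fold change against GFP 4.37, FDR 0.000251). *Acvr1b*, an activin type I receptor, fell by 0.53 (FDR 0.0306). Of the signal-transducing SMAD genes, 1 of 5 was higher (20%), which was *Smad1* (0.69, FDR 0.0308), a BMP effector.

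Of 12 intracellular inhibitors, 3 were higher in YAP5SA OE CMs and 0 were lower, or 25%. Of all genes, 22% were called in either direction, with 12.8% higher and 9.18% lower. *Smad7*, which blocks type I receptors, stood at 19.9 and 15.0 CPM in GFP, 32.4 and 25.3 in YAP6SA, and 38.6 and 45.9 in YAP5SA (1.29 against GFP, FDR 0.00361). *Pmepa1*, which binds SMAD2 and SMAD3, rose by 0.76 (FDR 0.0219). Of the extracellular antagonists, 7 of 16 passed the filter, with 2 higher and 0 lower (28.6%). *Nog*, the secreted BMP antagonist noggin, had 5 and 1 counts in GFP, 0 and 9 in YAP6SA, and 114 and 370 in YAP5SA (FDR 0.00118), and passed the filter through YAP5SA alone. The ratio of YAP5SA to GFP counts, scaled to the libraries, was 84.0 with an exact 95% interval of 38.3 to 230 for counting error alone. *Crim1*, a membrane protein that binds BMPs, rose by 2.09 (FDR 0.00311).

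Of 16 genes for latency and activation that passed the filter, 3 were higher and 0 were lower, or 18.8%. Of all genes, 22% were called in either direction, with 12.8% higher and 9.18% lower. *Pcsk5*, a proprotein convertase, stood at 6.31 and 5.88 CPM in GFP, 8.85 and 5.70 in YAP6SA, and 33.1 and 66.1 in YAP5SA (3.0, FDR 0.000746). *Thbs1*, which encodes thrombospondin 1, an activator of latent TGF-beta, rose by 3.62 (FDR 0.0124), with 1.43 in batch 1 and 5.66 in batch 2.

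The list of TGF-beta target genes had 7 of 13 called higher and 0 lower in YAP5SA OE CMs, or 53.8%, against 12.8% of all genes higher and 22% called in either direction, with a median log2 fold change of 1.03. Among them were *Ccn2* (3.33, FDR 0.000998), *Acta2* (3.0, FDR 7.97e-05), *Lox*, *Smad7*, *Junb* and *Pmepa1*. *Ccn2* is also known as a target of YAP and TEAD and *Acta2* as a target of SRF, so that these genes do not mark TGF-beta signalling alone. *Tgfbi* (1.03, FDR 0.0506), *Fn1* (0.40, FDR 0.154) and *Col1a1* (0.36, FDR 0.109) of the same list were not called. Neither were *Postn* (0.26, FDR 0.25) and *Col1a2* (0.06, FDR 0.79). The list was chosen with earlier results of these data known. Of 12 BMP target genes, 3 were higher and 0 were lower (25%, against 22% of all genes in either direction and 12.8% higher). They were *Smad7*, *Id1* (0.87, FDR 0.00951) and *Bambi*, and the median was 0.28.

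In YAP6SA OE CMs, 1 of the 79 pathway genes was called (1.27%, against 0.045% of all genes), which was *Acta2*, the smooth muscle actin gene. It had 272 and 142 CPM in GFP and 1559 and 1256 in YAP6SA (log2 fold change 2.83, FDR 0.00222). In the other lists the genes with the lowest p were *Eng* (0.29, FDR 0.852), *Smad3* (-0.31, FDR 0.842), *Bambi* (-0.58, FDR 0.462), *Twsg1* (0.41, FDR 0.842) and *Fbn2* (0.28, FDR 0.877). The median log2 fold change of the 79 was 0.13, against 0.00179 over all genes tested. Between the variants, 14 of the 79 were higher and 2 lower in YAP5SA, or 20.3%. Of all genes this was 14.7%, with 9% higher and 5.68% lower.

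**Figure D4:**
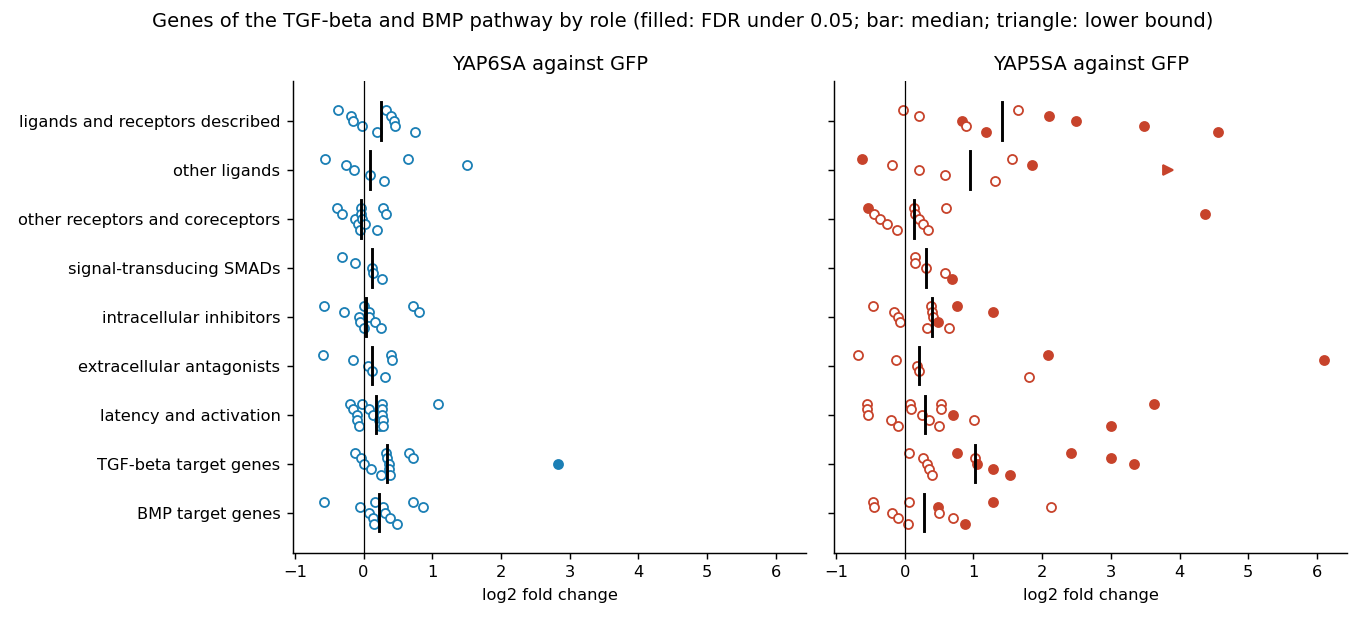
Log2 fold change against GFP of the 10 genes and of the other pathway genes by role, filled where the FDR is under 0.05, with a bar at the median. *Bmp8b* is drawn as a triangle at its lower bound in YAP5SA and left out in YAP6SA, and the medians of the TGF-beta target genes (1.03) and of the 10 genes (1.42) stand furthest right in YAP5SA.

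Markers of other cells were set beside these results, since in bulk nuclei fewer cells of a type and less RNA per cell cannot be told apart. The epicardial genes *Wt1*, *Upk3b*, *Msln* and *Tbx18* summed to 76.9 and 68.6 CPM in GFP, 87.5 and 61.4 in YAP6SA, and 182 and 321 in YAP5SA, and so moved with *Tgfb2*, *Tgfb3*, *Bmp4* and *Inhba*. Of these 4 markers, *Wt1* (log2 fold change 3.17) and *Tbx18* (1.30) were called, and *Upk3b* (0.73, FDR 0.174) and *Msln* (0.03, FDR 0.949) were not. None of them was at 0 in any library. The CM markers summed to 46356 and 62097 CPM in GFP, 44049 and 56939 in YAP6SA, and 39018 and 28455 in YAP5SA, with *Pln* and *Ryr2* lower in YAP5SA (-1.04 and -0.81) and the other 5 not called. The part of either in the ligand values was not tested.

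The endothelial, fibroblast, mural and platelet sums of YAP5SA lay within the range of the other libraries, and 0 of the 8 endothelial and 0 of the 7 fibroblast markers were called in YAP5SA against GFP. At an unadjusted p under 0.05 there were 1 and 3 of these, respectively. Of the mural list *Myh11* rose by 1.00. The macrophage sum was 56.1 and 78.0 CPM in GFP and 73.7 and 108 in YAP5SA, with *C1qa* called (0.96). Platelets are a known source of TGF-beta 1. Of their 4 markers, *Gp9* was at 0 in all 6 libraries and *Ppbp* had 4 counts in GFP replicate 1 and 0 elsewhere, while *Itga2b* was present at 10.4 to 14.8 CPM and *Pf4* at 1.92 to 5.6 CPM, neither of them called.

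**Figure D5:**
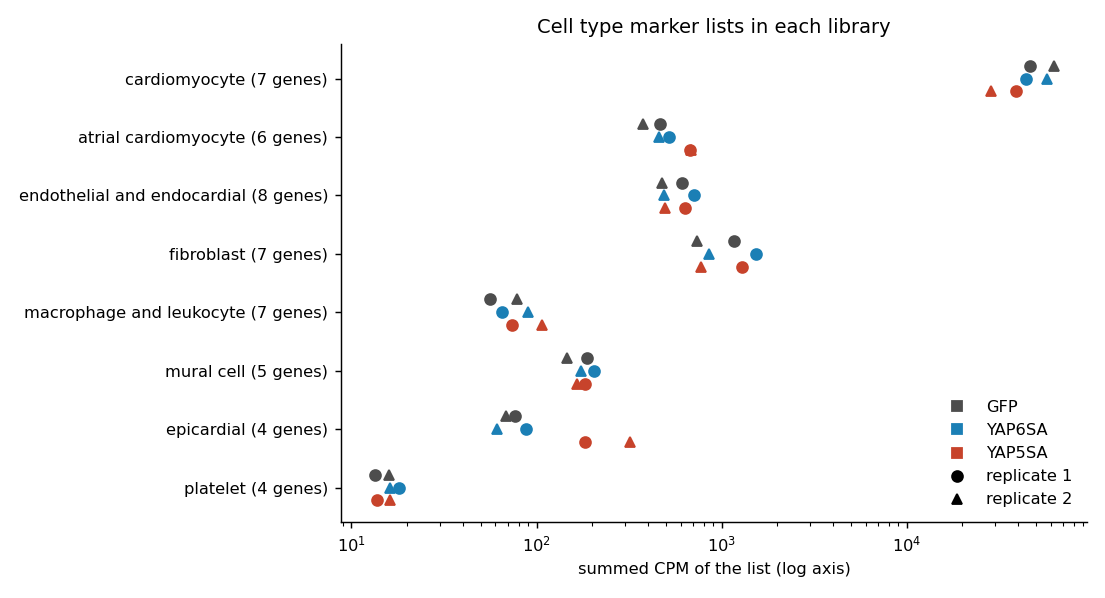
Summed CPM (log axis) of 8 cell type marker lists in each library, coloured by group, with circles for replicate 1 and triangles for replicate 2. The epicardial sums of YAP5SA, 182 and 321 CPM, lie above the 61.4 to 87.5 CPM of the other libraries, and the CM sums of YAP5SA lie lowest.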

How the data were processed

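Read counts per gene were deposited by the authors as raw whole numbers in 6 columns, 1 per library, with no normalization or filter. Per the labels and the study's methods, reads were mapped with STAR (version not given in the sources used here) to the mouse genome GRCm38 with Ensembl 94 genes. Of the 54532 genes, 54409 were named from GENCODE M21. Genes with a median log2 CPM over 1 in at least 1 of the 3 groups were kept, as the study's methods state, which left 13323. The model, made with edgeR 4.0.16 under R 4.3.3, scaled the libraries by TMM, took in all 6 with terms for group and batch, and used the quasi-likelihood test. The study names edgeR's linear model with a batch covariate and not which of its tests. P-values were adjusted over all genes kept, with a threshold of 0.05. SDs, and RPKM over the union of exons, were computed from TMM-scaled CPM.

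The labels number the replicates by batch, so the batch term is the replicate block and pairs libraries across groups. Deviations from the group means correlated across genes at 0.368 (GFP and YAP6SA), 0.0985 (GFP and YAP5SA) and 0.175 (YAP6SA and YAP5SA). The alternatives, with limma 3.58.1 and DESeq2 1.42.0 among them, are given with their effects at the end. The fit was tested on simulated data. The 10 genes, the 8 pathway lists and the 8 marker lists were chosen with earlier results of these data known. Named pathway genes are, for each list and variant against GFP, the 2 called genes that changed most each way, or the gene with the lowest p where none was called. Genes called in the TGF-beta and BMP target lists but outside this rule were named after their values were seen. Values of 1 listed gene are not reported here.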

Additional observations from a re-analysis of the deposited data

How the results depend on the processing

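With 2 libraries a group, the sizes of the larger changes were poorly fixed, and leaving out a library left 1 in its group, which was assumed to vary like the others. In YAP6SA against GFP, 0 of the 10 genes were called in all alternatives. *Inhba* did not pass the filter in the fit of the 4 YAP6SA and GFP libraries and has no value there. In that comparison the 1 pathway gene called became 4 with no filter, 2 in the likelihood ratio test, 5 with only the 4 libraries compared, 0 with no replicate block, and 1 to 5 with a library left out (2 without GFP replicate 1, and 5 without YAP5SA replicate 1 or 2). With a library left out, the genes called in YAP5SA against GFP ran from 3 (without GFP replicate 2) to 8 of the 10 and from 10 to 38 of the 79 pathway genes. Against YAP6SA they ran from 3 to 8 of the 10 (8 without YAP5SA replicate 1) and from 6 to 30 of the 79 (6 without YAP6SA replicate 2, 8 without YAP5SA replicate 2 and 30 without YAP5SA replicate 1). Without the block, that is with the pairing by batch ignored, 5 of the 10 and 14 of the 79 were called in YAP5SA against GFP, and 4 and 11 against YAP6SA, and *Tgfb1* was the only one of the 10 to lose its call.

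Direction turned only for genes that were not called, and only with a library left out. For YAP6SA against GFP, *Inhba* ran from -1.41 to 1.78 on the log2 scale (1.78 without GFP replicate 1, 0.03 without YAP6SA replicate 2), *Bmp2* from -0.24 to 1.45 (-0.24 without GFP replicate 2, -0.21 without YAP6SA replicate 1), *Bmp4* from -0.72 to 0.86 (-0.23 without GFP replicate 2, -0.72 without YAP6SA replicate 1), *Tgfb3* from -0.086 (without YAP6SA replicate 1) to 0.87, and *Tgfbr2* from -0.39 to 0.27 (0.03 without GFP replicate 1, 0.27 without YAP6SA replicate 2). *Bmpr2* in YAP5SA against GFP ran from -0.18 to 0.13 (0.12 without GFP replicate 1, 0.13 without YAP5SA replicate 1), and *Bmp2* in YAP5SA against YAP6SA from -0.12 (without YAP5SA replicate 2) to 2.35. The cause was not tested.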

Other observations

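Of the 112 other pathway genes, 33 lay under the filter, with at most 54 counts in any library, and 7 of these had 0 counts in all 6. Among the 33 were the ligand genes *Bmp5*, *Gdf11*, *Mstn* and *Nodal* and the antagonist genes *Fst*, *Grem1* and *Sost*. *Bmper*, which encodes a secreted BMP binding protein, had 30 and 3 counts in GFP, 25 and 14 in YAP6SA, and 14 and 54 in YAP5SA. *Smad9*, the least studied of the BMP effector SMADs, had 39 and 10 counts in GFP, 37 and 30 in YAP6SA, and 10 and 7 in YAP5SA. Those with a count were tested in the fit without the filter on low counts, and their values are given here without a test.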
